A study of Mus musculus with 2 samples.

Results

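The genes described here are 10 markers of tuft cells and of the taste signalling cascade, chosen by name: Pou2f3, Trpm5, Dclk1, Il25, Gnat3, Gnb3, Plcb2, Avil, Alox5 and Chat. They are 10 of 23003 genes to which a symbol could be given, and they cover 16 of the 30794 RefSeq transcripts in the deposited tables. Clp1 knockdown mTEChi were the GFP-positive cells, and Ctr mTEChi the GFP-negative cells, of 1 lentigenic B6 mouse. This mouse was selected for integration of hairpins against Clp1 behind the doxycycline-inducible TRE3G promoter, and of the TetOn3G transactivator behind the EF1 promoter. Both populations therefore shared its food containing doxycycline (2 g/kg), begun at an age of 3 weeks and kept up for 2 weeks. Whether the GFP-negative cells carried both constructs is not given. The paper also selected mice by GFP in mTEChi, and it reports 1 pup whose GFP-positive cells had reduced Clp1 mRNA. The Clp1 ratio below is thus that of a chosen animal. mTEChi, medullary thymic epithelial cells with high MHC class II, were sorted as CD45- cells with high I-A/E and low or intermediate Ly51. Each group is 1 library of 1 animal, so no difference below has a replicate check and no test between conditions was possible. Intervals are exact 95% intervals of read counting, and they cover counting error only. They treat each read as a separate molecule, although whether PCR copies were removed is not given.

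Tuft cells are rare chemosensory cells of hollow organs that sense parasites and metabolites with the machinery of taste cells. A receptor coupled to the G protein gustducin activates phospholipase C, calcium leaves its stores and the cation channel Trpm5 opens; the cell then releases the cytokine IL-25, acetylcholine and lipid mediators. In the thymic medulla some epithelial cells adopt this program under the transcription factor Pou2f3 and are counted among the mimetic mTEC, which resemble cells of peripheral tissues. In RNA of a sorted population, fewer cells of a type and less RNA per cell cannot be told apart.

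The tables held 37524730 reads of the knockdown library and 28464803 of Ctr, scaled by size factors of 1.14 and 0.877, and all log2 ratios are knockdown over Ctr after this scaling. Clp1 had 812 reads in the knockdown library and 1573 in Ctr (log2 ratio -1.33, -1.46 to -1.21). Markers that define the sorted cells were present in both, for example the class II gene H2-Aa with 167275 and 148783 reads in the knockdown and Ctr libraries, and Aire with 8264 and 7462. Markers of cells outside the gate were also read. All 4 distinct red cell genes with enough reads and 8 of 8 endothelial genes fell by the 2-fold rule given below. So did 5 of 7 B cell, 8 of 11 thymocyte, 6 of 9 fibroblast and mural cell and 7 of 10 cortical epithelial genes. Of 11 general thymic epithelial genes, 4 rose and 0 fell. The same rule called 21.9% of all genes higher and 19.7% lower. Hba-a1 and Hba-a2 had identical counts; taken once, red cell genes summed to 2072 scaled reads in the knockdown library and 62036 in Ctr.

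Of the 10 genes, 4 have an annotated proximal poly(A) site in the last exon, the feature that Clp1, a component of the 3' end processing machinery, was studied for. The 30 bases that end at each site are shown because the distal 3'UTR measured below starts at the next base, with the canonical poly(A) signal AATAAA in capitals where it occurs (mm9, which is NCBIM37):
Pou2f3, chr9:42932624-42932653, minus strand: tttctttcagcccttactcccttttctaca
Dclk1, chr3:55337646-55337675, plus strand: cgcccttttaataagacccttttactcgaa
Plcb2, chr2:118533483-118533512, minus strand: ggttggatccAATAAActttctggaggcat
Alox5, chr6:116360295-116360324, minus strand: gtttgttataaAATAAActtcatttaaaac
The signal ends 14 bases before the site in Plcb2 and 13 bases before it in Alox5. Neither AATAAA nor ATTAAA, searched on the transcript's strand, is in the 40 bases before the sites of Pou2f3 and Dclk1. Of 4401 distinct proximal sites that could be located, 39.4% had AATAAA and 16.6% ATTAAA in the same window.

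Among the tuft cell genes, 4 of 10 rose by 2-fold or more in the knockdown library with an interval above 0, none fell by 2-fold, and 6 stayed between these limits. Among 18543 genes with at least 10 reads, the same rule called 21.9% higher and 19.7% lower. The 4 were Il25, Chat, Gnat3 and Avil. The median log2 ratio of the 10 genes was 0.77, beside 0.03 over all genes, with 7 ratios above 0 and 3 below. All 10 passed the minimum of 10 reads. Avil, at 1.13, lay just inside the 2-fold limit and Pou2f3, at 0.89, just outside it. When the libraries were scaled on 11 general thymic epithelial genes instead, every log2 ratio dropped by 0.61, so that 3 genes were called higher, without Avil, and 2 lower, Gnb3 and Plcb2; 14.2% of all genes were then called higher and 34.2% lower.

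**Figure D1:**
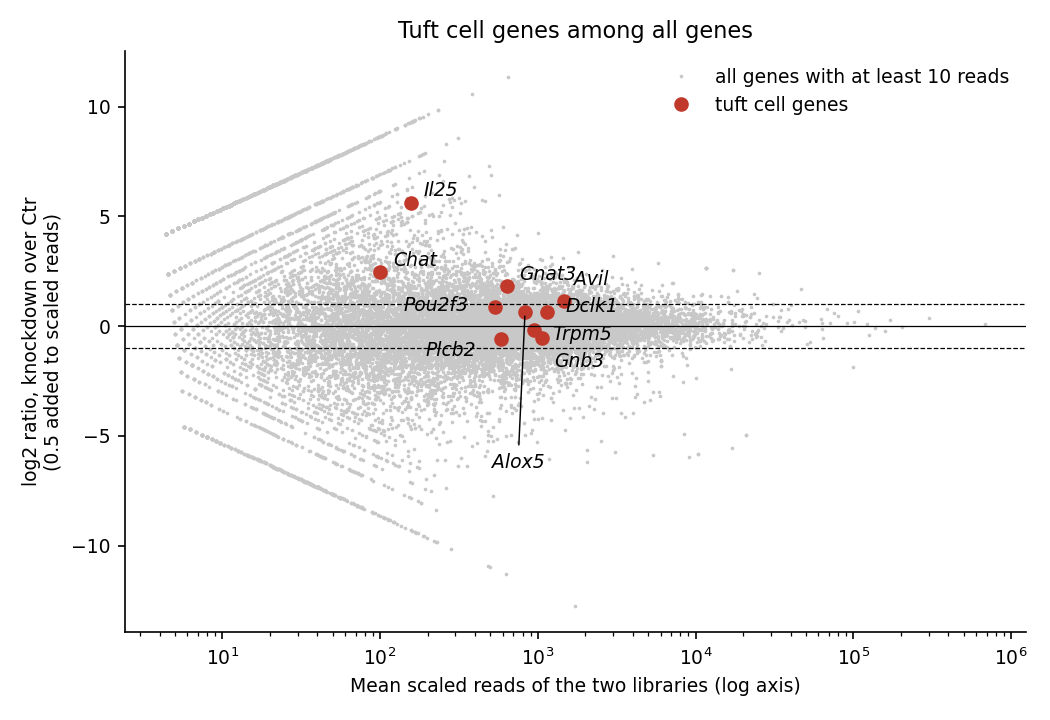
Log2 ratio of knockdown over Ctr (y axis, scaled reads plus 0.5) against the mean scaled reads of both libraries (x axis, log scale), for all genes that passed the read minimum (grey) and the 10 tuft cell genes (red); dashed lines mark 2-fold. Il25 stands highest and Plcb2 lowest of the 10, with ratios of 5.75 and -0.58 when nothing is added.

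Il25 encodes interleukin 25, the cytokine through which tuft cells of the gut and airways activate innate lymphoid cells (NM_080729; chr14:55551608-55554671, plus strand). It had 350 reads in the knockdown library and 5 in Ctr. The log2 ratio was 5.75 (4.51 to 7.38), a rise of 53.8-fold with a counting interval of 22.9 to 167. This ratio exceeded that of 96.8% of all genes. The reads lay across the transcript in the knockdown library, with 3 in the 5'UTR, 68 in the earlier exons and 277 in the last exon, whereas all 5 Ctr reads lay in the last exon. Per length, Il25 had 289 scaled reads per kb in the knockdown library and 5.36 in Ctr, so it ranked 5th of the 10 genes in the knockdown library and 10th in Ctr.

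Chat encodes choline acetyltransferase, which makes acetylcholine (NM_009891; chr14:33221389-33279095, minus strand). It had 194 reads in the knockdown library and 27 in Ctr, a log2 ratio of 2.47 (1.88 to 3.10). Chat rose by 5.53-fold and had the lowest level of the 10 genes in the knockdown library, at 60.6 scaled reads per kb (10.96 in Ctr). Earlier exons gave 78 and 7 reads and the last exon 103 and 20 reads in the knockdown and Ctr libraries. Neurons also use Chat, and 4 of 9 neuronal marker genes rose and 2 fell by the same rule, beside 21.9% and 19.7% of all genes. The neuronal markers summed to 12212 scaled reads in the knockdown library and 5439 in Ctr. Stmn2 had 367 reads in the knockdown library and 0 in Ctr. Their part in the ratio of Chat was not tested.

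Other genes of acetylcholine handling were few. Bche, which encodes the hydrolase butyrylcholinesterase, rose, with 3754 reads in the knockdown library and 276 in Ctr (3.39, 3.21 to 3.57). Slc18a3, the vesicular acetylcholine transporter, whose gene lies in the same locus as Chat, had 22 reads in the knockdown library and 0 in Ctr. This was a rise of 5.64-fold when Ctr is given a floor of 3 reads, and the exact log2 interval began at 2.08. Slc5a7, the choline transporter, had 7 reads in the knockdown library and 0 in Ctr, below the minimum of 10. Acetylcholinesterase, encoded by Ache, had 5337 reads in the knockdown library and 4244 in Ctr (-0.05, -0.11 to 0.01). Thus 2 of 3 genes with enough reads rose and 0 fell, beside 21.9% and 19.7% of all genes. The median of the 3 was 3.39, or 2.50 with Slc18a3 at this floor in Ctr. It was 2.28 with 5 in place of 0.5 added to scaled reads, and 1.67 over the 2 genes with at least 100 reads.

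The gustducin complex was next compared subunit by subunit. Gnat3, the alpha subunit of gustducin (NM_001081143; chr5:17468439-17525652, plus strand), had 1126 reads in the knockdown library and 246 in Ctr. It rose by 1.82 (1.62 to 2.02) on the log2 scale, or 3.52-fold, and had the highest level of the 10 genes in the knockdown library, 841 scaled reads per kb (239 in Ctr). Gnb3, the beta subunit that pairs with it in taste cells (NM_013530; chr6:124784258-124790293, minus strand), had 985 reads in the knockdown library and 1096 in Ctr (-0.53, -0.66 to -0.41). In Ctr, Gnb3 had the highest level of the 10 genes at 677 scaled reads per kb, against 468 in the knockdown library. The gamma subunit Gng13 had 789 reads in the knockdown library and 787 in Ctr (-0.37, -0.52 to -0.23).

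Because both members of a pair are read in the same libraries, a ratio of their reads does not depend on the scaling. There were 1.14 reads of Gnat3 for each read of Gnb3 in the knockdown library and 0.224 in Ctr, a change of 5.09-fold (4.32 to 6.02). For Gnb3 against Gng13 the ratio was 1.25 in the knockdown library and 1.39 in Ctr, a change of 0.896-fold (0.785 to 1.02) whose interval included no change. These pairs were chosen after their values were seen. Gnat3 and Gnb3 also differ in base composition, which moved with the ratios as given below; with that trend subtracted, the change of Gnat3 against Gnb3 was 2.71-fold. Gnb3 is also used by photoreceptors, whose 10 marker genes summed to 387 scaled reads in the knockdown library and 209 in Ctr. Of 8 with enough reads, 3 were called higher and 2 lower, beside 21.9% and 19.7% of all genes. Gnat2 had 0 reads in both libraries. The part of photoreceptor genes in the ratio of Gnb3 was not tested.

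Downstream of gustducin, Plcb2, the phospholipase C that releases calcium (NM_177568; chr2:118533253-118554174, minus strand), had 530 reads in the knockdown library and 610 in Ctr. Its log2 ratio of -0.58 (-0.75 to -0.41) was the lowest of the 10. Trpm5, the calcium-gated cation channel that depolarises the cell (NM_020277; chr7:150255058-150280547, minus strand), had 1016 reads in the knockdown library and 869 in Ctr (-0.15, -0.29 to -0.02). Trpm5 shares up to 217 bp of an exon with Tssc4 on the other strand, and reads of the 2 genes cannot be told apart there. Itpr3, the calcium release channel of taste cells, had 608 and 643 reads in the knockdown and Ctr libraries (-0.46, -0.62 to -0.30). The related channel Trpm4 had 201 and 227 reads (-0.55, -0.84 to -0.27). Reads of Plcb2 for each read of Trpm5 were 0.522 in the knockdown library and 0.702 in Ctr, a change of 0.743-fold (0.639 to 0.864). Rgs13, a regulator that ends G protein signalling, rose instead, with 1637 reads in the knockdown library and 214 in Ctr (2.56, 2.35 to 2.77). Calhm1, a channel subunit for ATP release in taste cells, had 0 reads in the knockdown library and 12 in Ctr. It was 5.20-fold lower with the knockdown library set at 3 reads, and the exact log2 interval reached up to -1.85. Of 5 cascade partners, 1 was called higher and 1 lower, beside 21.9% and 19.7% of all genes, and their median was -0.46. With thymic epithelial scaling 1 was called higher and 3 lower, Itpr3 and Trpm4 included, beside 14.2% and 34.2% of all genes.

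The receptors that feed the cascade went both ways on few reads. Tas1r1, a subunit of the umami receptor, had 108 reads in the knockdown library and 0 in Ctr. This was a rise of 27.7-fold over the same floor of 3 reads, and the exact log2 interval began at 4.47. Tas1r3, its partner that also serves the sweet receptor, fell, with 91 reads in the knockdown library and 303 in Ctr (-2.11, -2.47 to -1.77). The bitter receptor gene Tas2r108 had 63 and 0 reads in the knockdown and Ctr libraries, 16.2-fold higher over that floor (log2 interval from 3.67). The succinate receptor gene Sucnr1, through which gut tuft cells sense protists, fell by 3.32 (-3.83 to -2.85), with 41 reads in the knockdown library and 315 in Ctr. Ffar3, a receptor for short-chain fatty acids, had 0 reads in the knockdown library and 22 in Ctr. With the knockdown library at the floor it was 9.53-fold lower (log2 interval up to -2.83). The other 9 of 14 receptor genes had fewer than 10 reads, and Tas2r105, Tas2r131, Tas2r135 and Tas2r143 had 0 in both libraries. The 5 with enough reads were all called, 2 higher and 3 lower, beside 21.9% and 19.7% of all genes. The median of these 5 was -2.11, but -0.13 over the 10 receptor genes with at least 1 read.

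**Figure D2:**
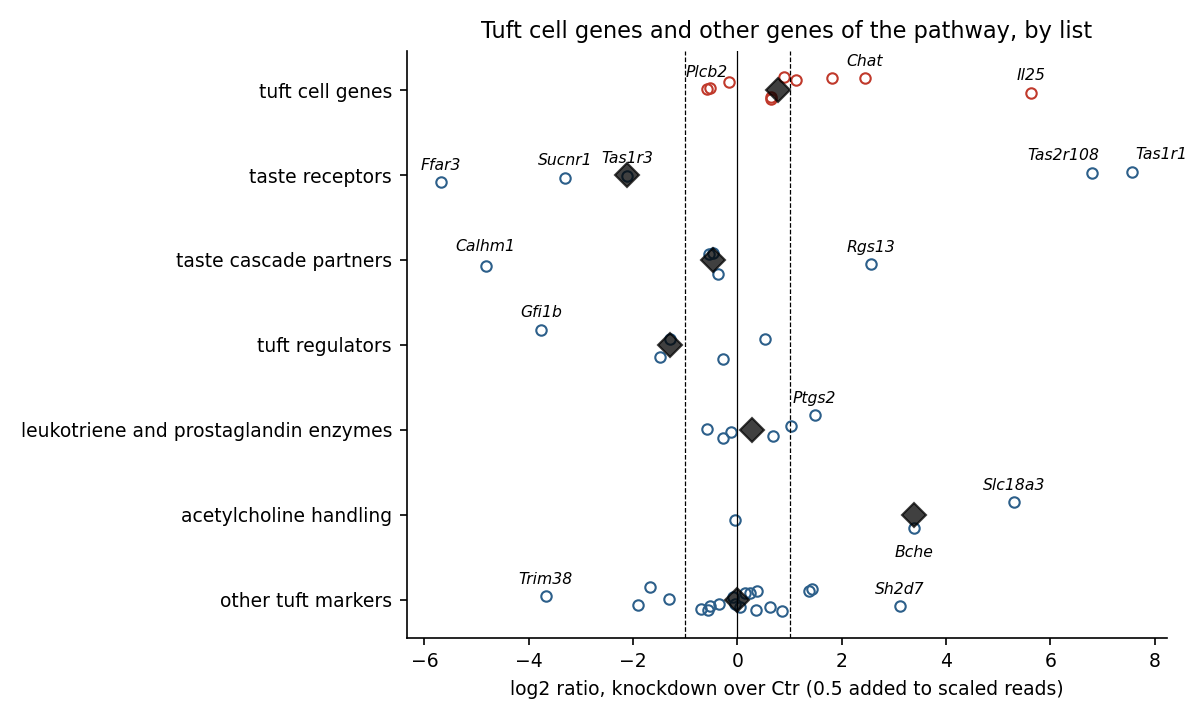
Log2 ratio (x axis; knockdown over Ctr, scaled reads plus 0.5) for the 10 tuft cell genes (red circles) and 6 lists of other tuft and taste genes (blue circles) with at least 10 reads; diamonds are list medians and dashed lines mark 2-fold. The 5 receptors and 5 regulators have medians of -2.11 and -1.29, the tuft cell genes one of 0.77.

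Pou2f3, the transcription factor without which tuft cells do not form (NM_011139; chr9:42932022-43018452, minus strand), had 796 reads in the knockdown library and 330 in Ctr. The log2 ratio was 0.89 (0.70 to 1.08) and the level 277 scaled reads per kb in the knockdown library, against 149 in Ctr. Other regulators of the lineage lay lower. Gfi1b, a repressor that marks tuft cells and also acts in red cell and megakaryocyte development, fell by 3.79 (-4.43 to -3.20), with 26 reads in the knockdown library and 276 in Ctr; red cell genes were lower in the same library, as given above, and their part in this fall was not tested. Hmx2 and Hmx3, neighbouring homeobox genes, also fell, at -1.30 (-1.78 to -0.84) and -1.49 (-2.003 to -0.99). Sox4 (0.53, 0.49 to 0.57) and Ascl2 (-0.28, -0.69 to 0.14) were not called. In all, 3 of 5 regulators fell and 0 rose, beside 19.7% and 21.9% of all genes. With the GC trend subtracted Hmx2 came to -0.895 and Hmx3 to -0.956, and only Gfi1b of the 5 was called.

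Avil encodes advillin, an actin-binding protein of the villin family found in the apical tuft (NM_009635; chr10:126437765-126458050, plus strand). It had 2295 reads in the knockdown library and 807 in Ctr, the most of the 10 genes in the knockdown library. It rose by 1.13 (1.01 to 1.25) on the log2 scale, and its level was 664 scaled reads per kb in the knockdown library and 303 in Ctr, 2nd of the 10 genes in both. Avil shares up to 165 bp of an exon with Tsfm on the other strand. Relative to Pou2f3, there were 2.88 reads of Avil for each read in the knockdown library and 2.45 in Ctr, a change of 1.18-fold (1.01 to 1.37). Vil1, the related villin gene, had 738 and 440 reads in the knockdown and Ctr libraries (0.37, 0.20 to 0.54).

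Alox5 encodes 5-lipoxygenase, the first enzyme of leukotriene synthesis (NM_009662; chr6:116360095-116411196, minus strand). It had 1155 reads in the knockdown library and 567 in Ctr (0.65, 0.50 to 0.80), and 358 scaled reads per kb in the knockdown library against 229 in Ctr. Its activating partner Alox5ap had 265 and 223 reads (-0.13, -0.39 to 0.13), and Ltc4s, which makes leukotriene C4, had 466 and 537 reads (-0.58, -0.77 to -0.40), each in the knockdown and Ctr libraries. Reads of Alox5 for each read of Ltc4s were 2.48 in the knockdown library and 1.06 in Ctr, a change of 2.35-fold (1.99 to 2.76). Of the prostaglandin genes, Ptgs2, the inducible cyclooxygenase, rose by 1.48 (1.43 to 1.54), with 12905 reads in the knockdown library and 3549 in Ctr. Pla2g4a, the phospholipase that frees arachidonic acid, rose by 1.03 (0.96 to 1.11). Ptgs1, the cyclooxygenase usual in tuft cells (-0.27, -0.45 to -0.09), and the prostaglandin D synthase gene Hpgds (0.69, 0.48 to 0.90) were not called, so that 2 of 6 enzymes rose and 0 fell, beside 21.9% and 19.7% of all genes. Neither rise held by the 2-fold rule with thymic epithelial scaling (0.88 for Ptgs2 and 0.43 for Pla2g4a) or with the GC trend subtracted (0.98 and 0.68).

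Myeloid and mast cells use several of these enzymes. Of 12 dendritic cell and macrophage genes, 1 was called higher and 6 lower, beside 21.9% and 19.7% of all genes. They summed to 19530 scaled reads in the knockdown library and 16930 in Ctr, and none was at 0. Most of these reads were of Lyz2, with 13893 in the knockdown library and 9168 in Ctr, whereas the median log2 ratio of the 12 was -0.55. Of 11 mast cell and neutrophil genes, 2 were higher and 4 lower, beside the same shares. These 11 summed to 9934 and 19467 in the knockdown and Ctr libraries. The mast cell receptor gene Ms4a2 had 70 reads in the knockdown library and 0 in Ctr, and Cpa3 15 and 0, whereas Elane of neutrophils had 0 and 1109. The other mast cell genes were not called, with ratios of 0.22 for Kit, -0.69 for Fcer1a and -0.60 for Mcpt4. Their part in the values of Alox5 and its partners was not tested.

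Dclk1 encodes a microtubule-associated kinase of the doublecortin family and is a widely used tuft cell marker in mouse (chr3:55046448-55342986, plus strand). Its 7 RefSeq transcripts end in different last exons. The most read of them, NM_001111053, had 1595 reads in the knockdown library and 780 in Ctr (0.65, 0.53 to 0.78) and was not called. It ends in an upstream last exon of 4745 bp (chr3:55270495-55275239), before the exons of the kinase domain, as 2 of the 7 transcripts do. NM_001195538 is 1 of the 5 transcripts that run to the downstream last exon (chr3:55337492-55342986). It had 1753 reads in the knockdown library and 456 in Ctr, a log2 ratio of 1.56 (1.41 to 1.72), and passed the 2-fold rule.

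The last exons of Dclk1 were therefore read separately. The upstream one had 866 reads in the knockdown library and 488 in Ctr (0.45, 0.29 to 0.61). The downstream one had 841 reads in the knockdown library and 119 in Ctr (2.44, 2.16 to 2.73). For each read of the upstream exon there were 0.971 reads of the downstream exon in the knockdown library and 0.244 in Ctr, a change of 3.98-fold (3.18 to 5.01) that does not depend on scaling. The annotation used here places no exon of the long transcripts over the upstream last exon, so that unspliced RNA of the long form would also be counted there. The 5'UTR that NM_001111053 shares with NM_001195538 had 81 reads in the knockdown library and 30 in Ctr, and the other annotated 5'UTR, as in NM_001111052, had 6 and 0 reads.

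Each of the 10 genes was then followed along its transcript. In the parts with at least 10 reads, every ratio of Pou2f3, Dclk1, Il25, Gnat3, Avil, Alox5 and Chat was above 0, and every ratio of Gnb3 was below 0. For Gnb3 the ratios ranged from -1.33 in the 5'UTR to -0.39 in the earlier exons, and for Avil from 0.35 in the 5'UTR to 1.22 in the last exon. The parts of Trpm5 and Plcb2 lay on both sides of 0. In Plcb2 the part above 0 was the 5'UTR, with 21 reads in the knockdown library and 8 in Ctr (1.01, -0.22 to 2.40), while the earlier exons had 409 and 491 reads (-0.64, -0.83 to -0.45).

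**Figure D3:**
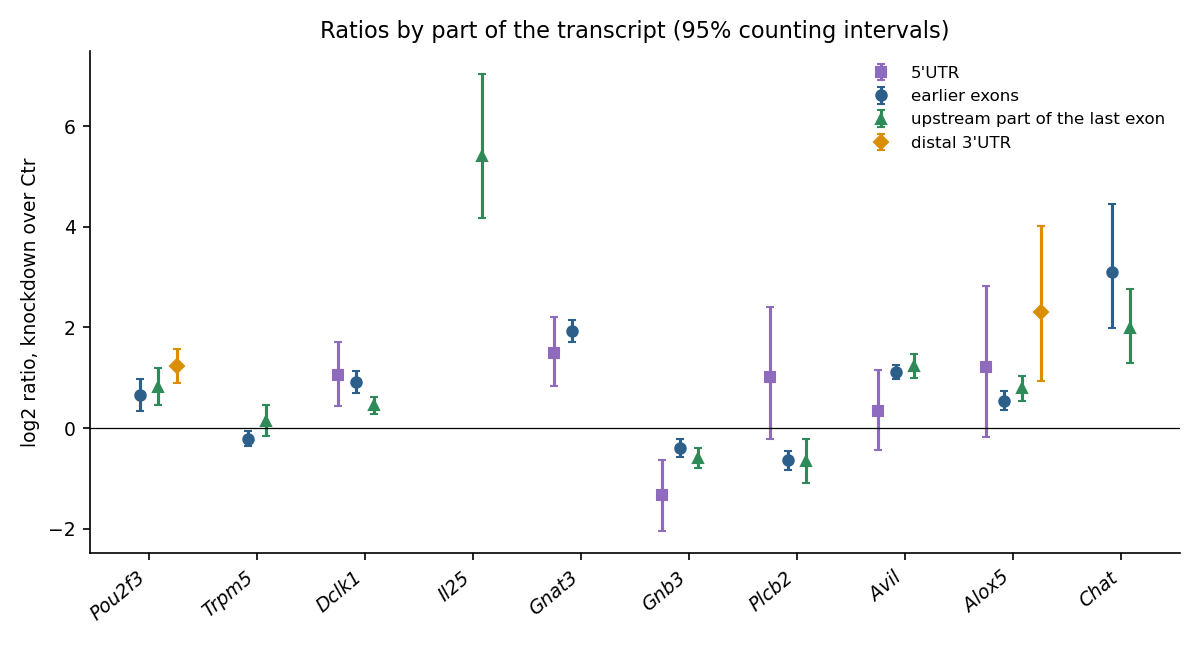
Log2 ratio of knockdown over Ctr (y axis) in each transcript part that had 10 or more reads in all, for the 10 genes (x axis), with exact 95% counting intervals; the earlier exons of Il25, with 68 reads in the knockdown library and 0 in Ctr, have no finite ratio and are left out. The parts of Gnat3 lie at 1.496 and 1.92, and those of Gnb3 all lie below 0.

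The use of distal poly(A) sites was measured as the d3'UTR ratio, the read density of the distal 3'UTR over that of the upstream part of the last exon. Ratios are printed with nothing added, whereas their log2 changes had 0.5 reads added to each part. These changes carry conditional exact intervals, which were computed without added reads. With nothing added, the log2 change was 0.40 for Pou2f3, 1.51 for Alox5, 1.87 for Plcb2 and -0.66 for Dclk1. Pou2f3 had a d3'UTR ratio of 1.42 in the knockdown library and 1.07 in Ctr, on 524 and 195 last-exon reads. The log2 change was 0.40 (-0.10 to 0.90), and the interval included 0. For Alox5, whose site carries the AATAAA shown above, the ratio was 0.225 in the knockdown library and 0.0790 in Ctr. The distal part took 32 of 461 last-exon reads (6.94%, 4.796% to 9.66%) in the knockdown library and 5 of 196 (2.55%, 0.83% to 5.85%) in Ctr, a log2 change of 1.40 (0.11 to 3.25). This was the only interval of the 4 that lay above 0, and it rests on 5 distal reads in Ctr.

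Plcb2, the other gene with the canonical signal, had distal reads so rare, 3 of 86 in the knockdown library and 1 of 102 in Ctr, that no change was detectable at this depth (1.504, -1.81 to 7.60). For Dclk1 the ratio was 0.848 in the knockdown library and 1.34 in Ctr, with only 33 and 3 reads upstream of the site (-0.46, -3.03 to 1.05), and with all parts upstream of the site as the base the change was 1.34. The distal part of Pou2f3 took 59.2% of last-exon reads in the knockdown library and 52.3% in Ctr. These shares also follow the lengths of the upstream and distal parts, 590 and 602 bp in Pou2f3 but 622 and 206 bp in Alox5. Over 7670 transcripts with at least 10 last-exon reads in each library, the median log2 change was 0.003, and the middle 50% ran from -0.60 to 0.66.

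The order of the levels differed between the libraries. In the knockdown library it ran from Gnat3, Avil and Gnb3 down to Plcb2, at 90.3 scaled reads per kb, and Chat; the neighbours Il25 (259 to 321) and Pou2f3 (258 to 297) had overlapping counting intervals. In Ctr it ran from Gnb3, Avil and Gnat3 down to Chat and Il25. There the intervals of Gnat3 (210 to 271), Alox5 (210 to 248) and Trpm5 (211 to 242) overlapped, as did those of Pou2f3, Dclk1 and Plcb2, which lay between 125 and 166, and those of Chat (7.22 to 15.9) and Il25 (1.74 to 12.5).

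**Figure D4:**
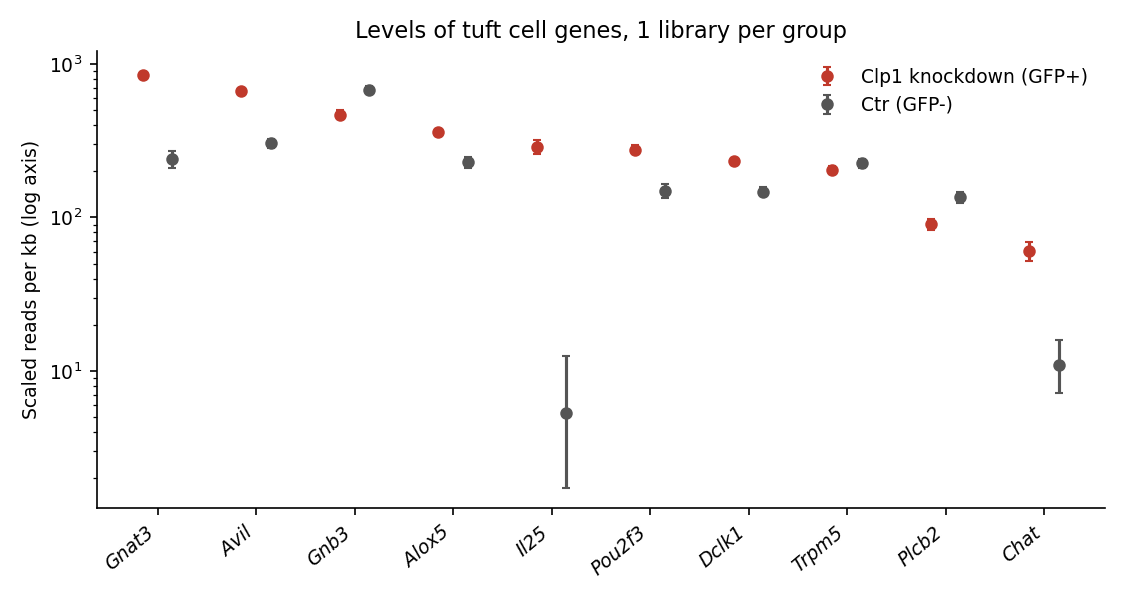
Scaled reads per kb of transcript (y axis, log scale) of the 10 genes in the Clp1 knockdown library (red) and the Ctr library (grey), with exact 95% Poisson intervals; 1 library per group. The 10 levels span 60.6 to 841 in the knockdown library and 5.36 to 677 in Ctr.

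Further tuft cell markers, beyond those of signalling, were close to balanced. Of 20 such genes, 3 rose, 4 fell and 13 were not called, with a median of -0.001. With thymic epithelial scaling 1 rose, Sh2d7, and 7 fell, beside 14.2% and 34.2% of all genes. Sh2d7, an adaptor protein gene, rose by 3.13 (2.66 to 3.64), with 444 reads in the knockdown library and 39 in Ctr. The kinase gene Bmx rose by 1.37 (1.21 to 1.54), with 1380 and 410 reads in the knockdown and Ctr libraries, and Ly6g6f by 1.45 (0.75 to 2.20) on 78 and 22 reads. Among those that fell were Inpp5d, a phosphatase of blood cells (-1.90, -2.04 to -1.76), L1cam, an adhesion molecule (-1.68, -1.95 to -1.42), Cd300lf, a receptor of tuft and myeloid cells (-1.30, -1.59 to -1.02), and Trim38, with 7 reads in the knockdown library and 74 in Ctr (-3.78, -5.14 to -2.67). B cell genes summed to 789 scaled reads in the knockdown library and 2215 in Ctr, and thymocyte genes to 5322 and 16436; their part in the falls of Inpp5d and Cd300lf was not tested. Il17rb, the receptor for IL-25, had 518 and 220 reads (0.86, 0.63 to 1.09) in the knockdown and Ctr libraries and was not called. Over all 44 genes of the 6 lists with enough reads, 10 were called higher (22.7%) and 11 lower (25%), beside 21.9% and 19.7% of all genes.

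Base composition moved with the ratios across the whole table. Over 13935 genes in 20 bins of GC content, the median log2 ratio was 0.52 in the bin with the lowest GC and -0.53 in that with the highest. Gnat3, with 40.7% GC, lay in a bin with a median of 0.51, and Gnb3, with 56.9% GC, in one with -0.40. With the bin median subtracted, Gnat3 stood at 1.31, Gnb3 at -0.13 and Plcb2 at -0.36. Il25, at 57.4% GC, stood at 6.16, Chat at 2.72 and Avil at 1.38. Trpm5 changed sign, to 0.10. The same 4 genes stayed above 1, and Pou2f3 came to 0.998.

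**Figure D5:**
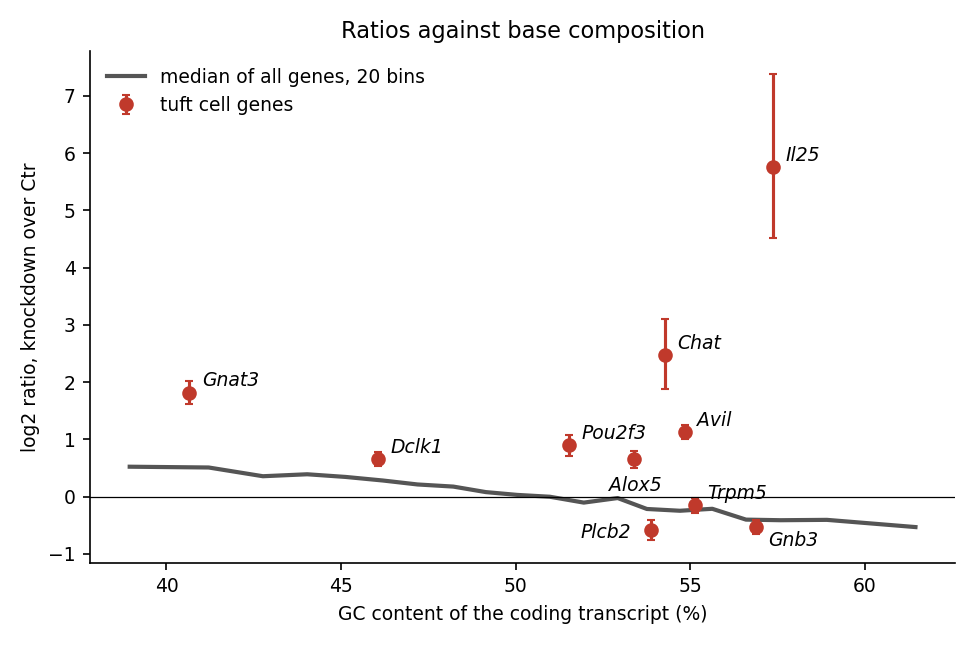
Log2 ratio of knockdown over Ctr (y axis, exact 95% counting intervals) against GC content of the coding transcript in percent (x axis) for the 10 genes (red), with the median of all genes in 20 bins (grey line). The line runs from 0.52 to -0.53, and Il25, Chat, Avil, Pou2f3, Alox5 and, by 0.10, Trpm5 lie above it at more than 50% GC.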

How the data were processed

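Total RNA of both sorted populations was reverse-transcribed with a low-input template-switching kit and fragmented with transposase. The submitters' processing notes name the mm9 build, Bowtie 1.0.0, bedtools and DESeq. The deposited counts are raw reads within exons of RefSeq transcripts, and within transcript parts listed with their lengths in bp. A table with the authors' own normalized values, fold changes and p-values was not used. Whether counting used strand, or duplicates were removed, is not given.

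Symbols came from a RefSeq table of GRCm38.p6 by identifier (30216 transcripts matched), and locations and sequences from NCBIM37 with GENCODE vM1. The most read transcript stood for its gene. Counts were divided by median-of-ratios size factors, and intervals are Clopper-Pearson intervals of the knockdown share of reads. Calls needed at least 10 reads in all, a 2-fold ratio, and an interval without 0. List medians used 0.5 added to scaled counts. Changes of read ratios carry conditional exact intervals. Proximal sites were placed in last exons whose length matched within 10 bp (differences of 4 bp in Dclk1 and 6 bp in Alox5). The GC trend used genes with at least 50 reads. Python 3.11.15, scipy 1.17.1 and edgeR 4.0.16 (TMM factors only) were used. The computation of ratios and calls was checked on simulated Poisson counts. These held counting error only, as the intervals assume, so the check does not show how reliable the calls are in these libraries.

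The members and lists were chosen with earlier results of these data known. By rule, all 10 genes and Clp1 were named, with up to 4 called genes of each pathway list and up to 3 genes of each cell type list, those with the most reads, and genes at 0 where fewer than 6. Other genes named were chosen after their values were seen. Rgs21, Calhm3, Pou2af2, Pou2af3, Sh2d6 and Hbb-b1 were not matched and are not analysed here.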

Additional observations from a re-analysis of the deposited data

How the results depend on the processing

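Scaling by total reads or by TMM factors and thinning of the knockdown library to the depth of Ctr left the 4 higher and 0 lower calls among the 10 genes in number. Scaling on thymic epithelial genes gave 3 higher and 2 lower, beside 14.2% and 34.2% of all genes. The Dclk1 transcript with the fewest reads, at 2.21, made 5 higher. The median of other tuft markers was 0.0475 with a minimum of 100 reads, against -0.001. Of 96 alternative log2 values of single genes and lists, 3 changed sign: this median, Trpm5 (0.10) with the GC trend subtracted, and the d3'UTR change of Dclk1 (1.34) with all upstream parts as the base. Over these values and the counts of list calls, 90 alternatives stayed within the counting interval or tolerance, 29 moved beyond it and 1 was the median above. Subtraction of the GC trend, and both alternatives for list calls, were chosen after seeing the data. The ratios of Chat and Il25 rest on 27 and 5 reads in Ctr. No paired analysis was possible because each group holds 1 library, so no library could be left out either.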

Other observations

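Of 9 genes of microfold-like cells, another mimetic program of the medulla, 0 rose and 3 fell, beside 21.9% and 19.7% of all genes, with a median log2 ratio of -0.50. The glycoprotein gene Gp2, which marks microfold cells, had 8707 reads in the knockdown library and 8491 in Ctr (-0.34, -0.39 to -0.30), and the chemokine gene Ccl20 fell by 1.63 (-1.70 to -1.56), with 2698 reads in the knockdown library and 6423 in Ctr. The 3 genes of this list with the most reads were Marcksl1 (-0.50), Anxa5 (0.49) and Spib (-0.16), none of them called, and only Anxa5 of the 9 lay above 0. Differences between the microfold-like and the tuft cell genes were not tested, since both rest on the same pair of libraries.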
